A study of Mus musculus with 14 samples.

Results

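The genes described here are 10 components of calcium release, storage and buffering in skeletal muscle, chosen by symbol: the voltage sensor Cacna1s, the release channels Ryr1 and Ryr3, the junction proteins Trdn, Jph1 and Jph2, the luminal proteins Casq1, Casq2 and Hrc, and the cytosolic buffer Pvalb. They were read by 14 of the 55681 probes of the array and are 10 of its 24559 named genes. The samples were 14 RNA preparations of extensor digitorum longus (EDL), a fast muscle, and of soleus, a slower postural muscle, from C57BL/6 mice that were either Ts1Cje or wild type (WT). The 4 groups were EDL WT (n = 3), EDL Ts1Cje (n = 3), soleus WT (n = 4) and soleus Ts1Cje (n = 4), and both genotypes came as littermate pairs with no age in the labels. Ts1Cje mice carry a partial trisomy and are used as a model of Down syndrome, and none of the 10 genes lies on the chromosome that holds the extra segment, since their probes map to chromosomes 1, 2, 3, 7, 10 and 15. From each sample 25 ng of RNA was amplified, labelled with Cy3 and hybridised to a 1-colour Agilent array.

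In skeletal muscle, an action potential that enters the transverse tubule moves the voltage sensor Cacna1s, which opens the ryanodine receptor Ryr1 in the facing membrane of the sarcoplasmic reticulum. Junctophilins hold the tubule and the reticulum together at the triad, triadin anchors calsequestrin beside the channel, and calsequestrin and the histidine-rich protein Hrc bind calcium inside the store. Fast fibres release and clear calcium quickly, are rich in the fast calsequestrin Casq1 and hold much parvalbumin, the cytosolic buffer encoded by Pvalb, whereas slow fibres also carry the cardiac calsequestrin Casq2.

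The letters in front of the transcription start of the 4 genes that differed most between the muscles are given so that the measured differences can be set beside the DNA. Each stretch holds the 250 bases before the start in RefSeq, build GRCm38.p6, read 5′ to 3′ on the gene's own strand, and capitals mark matches to the E box CANNTG and to the MEF2 box.
Pvalb, chr15:78206401-78206650, minus strand: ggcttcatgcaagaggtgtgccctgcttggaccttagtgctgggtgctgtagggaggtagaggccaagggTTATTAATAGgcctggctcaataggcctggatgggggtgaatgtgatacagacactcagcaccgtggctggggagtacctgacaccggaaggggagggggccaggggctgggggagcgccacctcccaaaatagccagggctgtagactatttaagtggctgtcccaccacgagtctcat
Casq1, chr1:172219896-172220145, minus strand: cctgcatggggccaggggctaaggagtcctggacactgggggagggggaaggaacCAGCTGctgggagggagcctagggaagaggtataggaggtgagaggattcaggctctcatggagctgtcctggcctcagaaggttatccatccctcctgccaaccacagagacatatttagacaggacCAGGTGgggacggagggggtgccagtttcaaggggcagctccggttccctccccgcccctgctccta
Casq2, chr3:102086165-102086414, plus strand: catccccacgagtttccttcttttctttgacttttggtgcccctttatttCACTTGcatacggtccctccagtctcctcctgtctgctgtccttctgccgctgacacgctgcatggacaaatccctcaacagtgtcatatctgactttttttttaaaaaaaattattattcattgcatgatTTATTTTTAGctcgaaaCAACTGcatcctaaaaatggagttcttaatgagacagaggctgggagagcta
Jph2, chr2:163397994-163398243, minus strand: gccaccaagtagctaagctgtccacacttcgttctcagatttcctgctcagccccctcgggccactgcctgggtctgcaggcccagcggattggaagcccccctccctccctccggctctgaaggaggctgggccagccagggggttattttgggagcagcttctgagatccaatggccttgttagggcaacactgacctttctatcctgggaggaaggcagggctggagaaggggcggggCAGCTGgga

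RefSeq windows were matched for 7 of the 10 genes, 9 windows in all because Pvalb and Jph2 each have 2 starts, and the Jph2 windows overlap. Jph1, Ryr3 and Trdn had no entry. The MEF2 box, bound by a family of muscle transcription factors, was found on the reverse strand in Pvalb, 180 to 171 bases before the start, and in Casq2, 69 to 60 bases before it. It was present in 2 of the 9 windows, against 1.69% of the 32851 promoters in the table searched over the same length. The E box, bound by MyoD and its relatives, was present in 7 of the 9 windows against 66.2% of all promoters. Its myogenic form CAGCTG, which is also counted as an E box, was present in 5 of the 9 windows against 13.0%: in Cacna1s, Casq1, Hrc and both Jph2 windows. The NFAT core GGAAA was present in 3 of 9 windows (Casq2 and both Jph2 windows) against 55.6%. The MEF3 site TCAGGTT and the TATA box TATAAA were present in 0 of 9 windows, against 3.49% and 12.4%. All motifs were searched on both strands, and a match describes letters, not a bound site.

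The signal of each gene rests on the 60-base probes that the array carries for it. The first 30 bases of those behind the main results are given, which do not by themselves identify the transcript read.
Pvalb, probe A_55_P2114437 (mm9 chr15:78021951-78022010): agtttgtttgtgttattttttactccccca
Pvalb, probe A_55_P2059040 (mm9 chr15:78021549-78021608): ctccaatgacactctatcaattgcttttga
Casq1, probe A_51_P199104 (mm9 chr1:174140602-174142105): caaataggagttgtcaatgttacagacgcg
Casq2, probe A_51_P174696 (mm9 chr3:101949827-101949884): actcagacccaagcctttggatgtcaatta
Trdn, probe A_51_P249608 (mm9 chr10:32919981-32920040): tctgtcgatatatgattgacatgtttgtcc
Trdn, probe A_55_P2401646 (mm9 chr10:32915796-32915855): gctaagaaggaaatgaaagttggaaaacag
Trdn, probe A_55_P1966778 (mm9 chr10:33194264-33194323): acaacctggagagaaccctggcaaaacaaa

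The Casq1 probe spans 1504 bases of the genome and the Ryr1 probe 699, so that both cross an intron and read spliced RNA. Pvalb and Cacna1s had 2 probes and Trdn 3, and each gene was represented by its brightest probe. Signals are given as log2 of the intensity minus the log2 75th percentile of the array, so that 0 is the 75th percentile. The signals of different probes were not compared, because probes differ in how they bind. Of the probes on an array, 41.3% to 52.9% were well above background, arrays of the same group correlated at 0.979 to 0.988, and no probe was saturated. All 6 EDL arrays shared slide 1 with soleus Ts1Cje replicate 1, while the other 7 soleus arrays were on slide 2, so that muscle and slide nearly coincided. The tissue labels could be checked against fibre-type markers: the mean log2 signal of 8 fast-fibre genes was 9.76 to 10.24 on the EDL arrays and 7.19 to 8.48 on the soleus arrays. The mean of 8 slow-fibre genes was 8.75 to 9.38 on the soleus arrays and 1.47 to 4.94 on the EDL arrays, a wide spread within the EDL.

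All probes of 9 genes were well above background on all 14 arrays. The exception was Ryr3, a ryanodine receptor that among skeletal muscles is found mainly in developing muscle and the diaphragm. The Ryr3 probe was well above background on 7 of 14 arrays: 2 of 3 EDL WT, 1 of 3 EDL Ts1Cje, 2 of 4 soleus WT and 2 of 4 soleus Ts1Cje arrays. Its log2 signal ranged from -3.66 to -1.68 and it was not tested.

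**Figure D1:**
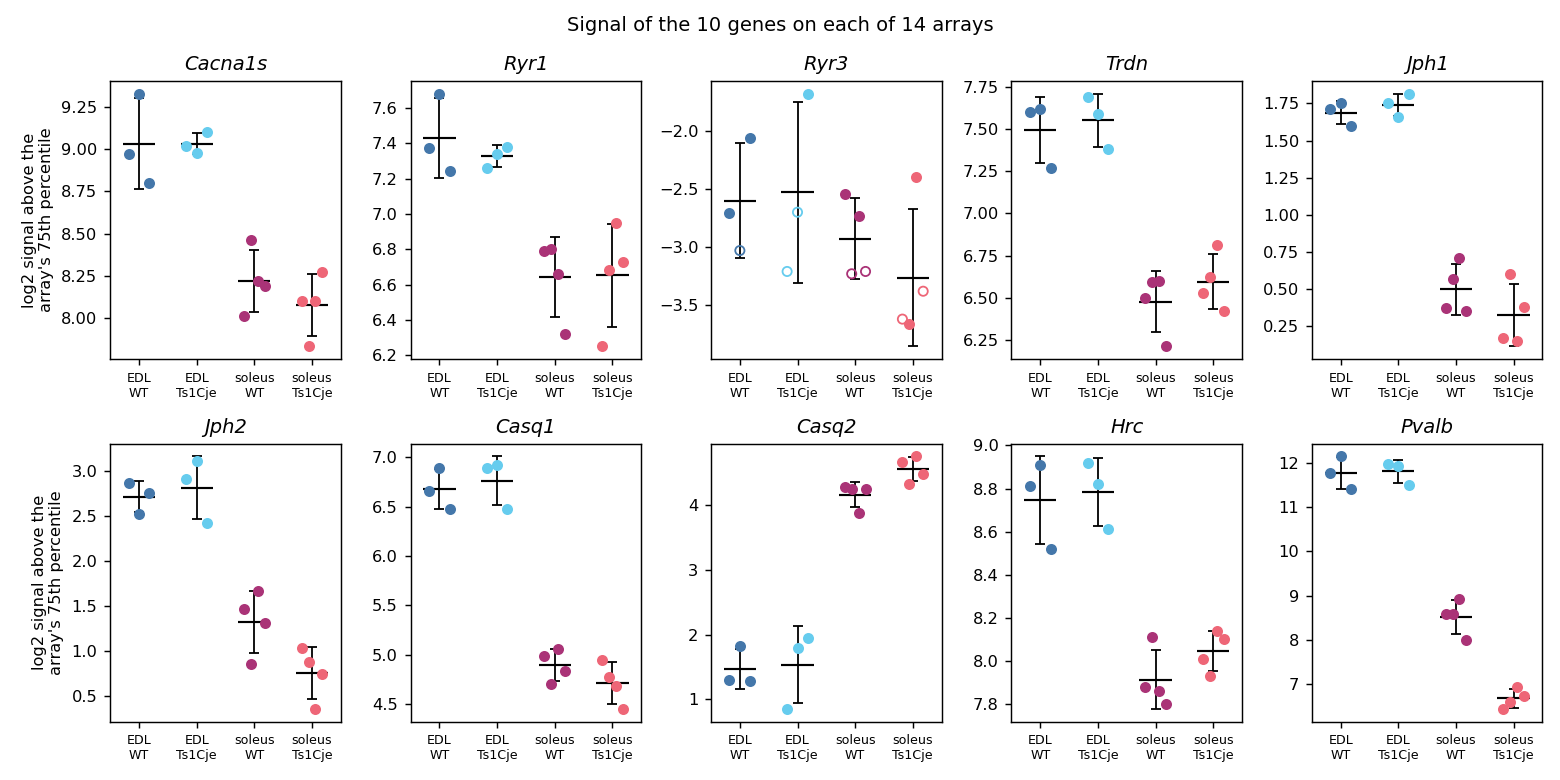
Signal of the 10 genes on each array, as log2 intensity minus the array's log2 75th percentile, with 1 panel and 1 axis range per gene. Points are arrays, open where the probe was not well above background, and bars are group means with SD. The EDL arrays lie above the soleus arrays for 8 genes and below them for Casq2, and only Pvalb has soleus Ts1Cje arrays clearly below soleus WT arrays.

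Ts1Cje and WT were compared within each muscle first, the question that the littermate pairs address. Pvalb fell in the soleus of Ts1Cje mice and was the 1 member called in a single muscle. On the 4 soleus WT arrays its log2 signal was 8.58, 8.57, 8.93 and 8.0, and on the 4 soleus Ts1Cje arrays it was 6.42, 6.59, 6.93 and 6.72. The groups did not overlap, and the lowest WT array stood above the highest Ts1Cje array. The means were 8.52 ± 0.38 (SD, n = 4) in WT and 6.66 ± 0.22 (SD, n = 4) in Ts1Cje, a log2 change of -1.86 ± 0.21 (SE; 95% confidence interval -2.31 to -1.41; limma adjusted p = 0.00318), or 3.63-fold lower. The other Pvalb probe gave -1.82 ± 0.23 (SE; limma adjusted p = 0.00839 over all 25190 probes tested). Of all 14170 genes tested, 0.0706% were called lower in the soleus of Ts1Cje mice (10 genes) and 0.176% higher, and Pvalb ranked 10 from the lowest by log2 change. Only soleus Ts1Cje had arrays on both slides, with replicate 1 alone on slide 1, so that a slide block sets that array aside. With slide as a block the Pvalb value was -1.78 (limma adjusted p = 0.0123), the same as without that array. Within slide 2 alone, which holds the same remaining soleus arrays, it was -1.78 and no longer passed (limma adjusted p = 0.0785). These values are the same estimate, not separate checks of slide.

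In the EDL the same gene gave a log2 change of 0.029 ± 0.24 (SE; limma adjusted p = 1). The 3 EDL WT arrays read 11.78, 12.16 and 11.43 and the 3 EDL Ts1Cje arrays 11.99, 11.94 and 11.52, so that the genotypes overlapped completely. The difference between the genotype effects of the muscles, EDL minus soleus, was 1.89 ± 0.32 (SE) for Pvalb, with an unadjusted p of 4.85e-05 but a limma adjusted p of 0.688. No gene was called for that difference (0% of 14170, with 3.2% at an unadjusted p under 0.05). Averaged over both muscles, Pvalb changed by -0.92 (limma adjusted p = 0.0264), a call that 0.0282% of genes shared in the lower direction. The other Pvalb probe gave -0.89 and was not called (limma adjusted p = 0.0795 over all 25190 probes tested). That averaged call was lost on leaving out any of 10 of the 14 arrays in turn (limma adjusted p 0.0542 to 0.0917 in those 10), and with the replicate number as a block (0.0838).

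Of 8 fast-fibre markers, 2 were called lower in the soleus of Ts1Cje mice and 0 higher. The mean log2 signal of the 8 was 7.92 to 8.48 on the soleus WT arrays and 7.19 to 7.43 on the soleus Ts1Cje arrays, without overlap, and its sum over the 8 genes was 63.33 to 67.86 against 57.49 to 59.44. Of these 8, Myh4, the fastest myosin heavy chain, fell by 4.12 on the log2 scale (limma adjusted p = 0.00643) and Actn3, the fast-fibre alpha-actinin, fell by 1.95 (limma adjusted p = 0.0131). Mybpc2, a fast myosin-binding protein, gave -1.54 and was not called (limma adjusted p = 0.0837). Myh1, Mylpf, Tnnc2, Tnni2 and Tnnt3 gave -0.15 to 0.025 and were not called either. All 8 slow-fibre markers had positive log2 changes of 0.05 to 0.53 and 0 were called. The fit shares 1 spread among the 4 groups, and these genes varied widely in the EDL. Their SE in the soleus was therefore 0.43 (Tpm3) to 1.11 (Myh7), so that changes of this size could hardly be called. Tnni1 (7.14 to 7.71 in WT, 7.77 to 8.09 in Ts1Cje) and Tnnc1 (6.46 to 6.91, 6.92 to 7.21) did not overlap, as in 6.1% of all genes. The other slow-fibre markers overlapped. In whole muscle, fewer fibres that hold Pvalb and less Pvalb RNA in each fibre cannot be told apart, and the part of the fast-fibre markers in the Pvalb result was not tested. The other 46 marker genes, in 11 lists for heart, blood, vessel, connective tissue, nerve, satellite cells and muscle in general, gave 0 calls in the soleus (lowest limma adjusted p = 0.281).

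Of the 5 genes whose signal followed Pvalb most closely over the 8 soleus arrays, 1 was on the fast-fibre list. This was Actn3, which had the highest Pearson correlation, 0.982 over 8 soleus arrays and 0.817 over 6 EDL arrays. Next came A130082J08Rik (0.962 and 0.45), Sp6 (0.959 and 0.76), Tbata (0.958 and 0.983) and Nabp1 (0.955 and 0.441). The soleus arrays form 2 genotype groups, so that the genotype difference enters these correlations. After each group's mean was removed the values were 0.952 for Actn3, 0.54 for A130082J08Rik, 0.62 for Sp6, 0.695 for Tbata and 0.622 for Nabp1. Tbata and Nabp1 were called lower in the soleus of Ts1Cje mice (log2 changes of -1.64 and -0.83, limma adjusted p = 0.0408 and 0.048), while A130082J08Rik and Sp6 were not (adjusted p = 0.3 and 0.316). The Nabp1 probe was well above background on 2 of 4 soleus WT and 1 of 4 soleus Ts1Cje arrays, so that its change and its correlation rest largely on signals near background. These arrays are not independent of the groups, and the correlations describe them only.

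**Figure D2:**
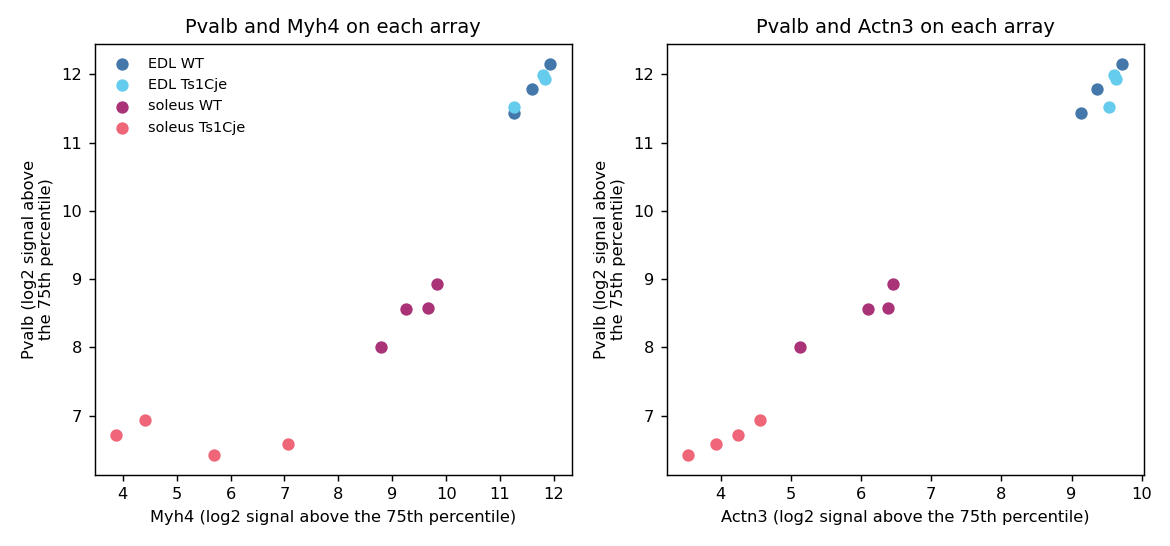
Pvalb signal (vertical) against Myh4 (left) and Actn3 (right) on each of the 14 arrays, all as log2 intensity minus the array's log2 75th percentile, coloured by group. The soleus Ts1Cje arrays lie lowest for Pvalb and for both markers. Within the soleus Ts1Cje group Pvalb varies from 6.42 to 6.93 while Myh4 varies from 3.88 to 7.07.

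Among the junction proteins, Jph2, the junctophilin that also holds dyads together in heart, had an unadjusted p under 0.05 in the soleus but was not called. Its log2 signal on the soleus WT arrays was 1.47, 0.86, 1.67 and 1.32, and on the soleus Ts1Cje arrays 1.04, 0.88, 0.36 and 0.75. Soleus WT replicate 2 lay within the Ts1Cje range, so that the groups overlapped. The log2 change was -0.58 ± 0.20 (SE; 95% confidence interval -1.01 to -0.14; unadjusted p = 0.0129, limma adjusted p = 0.29). In the EDL it was 0.10 ± 0.23 (SE), and the difference between the muscles was 0.67 (unadjusted p = 0.0459, limma adjusted p = 0.988). Its muscle-specific relative Jph1 gave -0.18 ± 0.12 (SE) in the soleus and 0.053 ± 0.14 (SE) in the EDL.

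The 3 Trdn probes did not read alike in the soleus. The brightest, which represents the gene, gave a log2 change of 0.12 ± 0.13 (SE) and the next -0.049 ± 0.16 (SE). The array annotation names no RefSeq transcript for the brightest probe, but does so for the other Trdn probes. The third, which lies downstream of the others on the plus strand, read 0.59, 0.53, 0.79 and 0.62 on the soleus WT arrays and 0.16, 0.0036, 0.027 and 0.46 on the soleus Ts1Cje arrays. These groups did not overlap, with a log2 change of -0.47 ± 0.13 (SE; unadjusted p = 0.00349), but the limma adjusted p over all probes was 0.243. Of genes read by their brightest probes 2.29% did not overlap in this direction, a share that does not cover the other probes. In the EDL the 3 probes gave 0.058, 0.029 and -0.029.

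By brightest probes, Casq2 was the 1 member beside Pvalb whose soleus groups did not overlap. It read 4.27, 4.24, 3.87 and 4.25 on the soleus WT arrays and 4.66, 4.33, 4.75 and 4.48 on the soleus Ts1Cje arrays, so that every Ts1Cje array was higher. The log2 change was 0.40 ± 0.22 (SE; 95% confidence interval -0.075 to 0.87) and was not called (limma adjusted p = 0.431). That interval uses 1 spread shared by all groups, and the Casq2 SD was 0.60 in EDL Ts1Cje but 0.19 in each soleus group. Other settings of the fit did not call Casq2 either (lowest limma adjusted p = 0.308). Of all genes 8.39% had soleus groups that did not overlap, 6.1% in the direction of Casq2 and 2.29% in that of Pvalb. The fast calsequestrin Casq1 gave -0.18 ± 0.14 (SE) in the soleus.

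The remaining members gave small values in both muscles. The voltage sensor Cacna1s differed by -0.14 ± 0.13 (SE), the release channel Ryr1 by 0.015 ± 0.16 and the luminal protein Hrc by 0.13 ± 0.11 in the soleus. In all, 1 of the 9 tested genes was called in the soleus, against 0.247% of all genes, and 2 of 9 had an unadjusted p under 0.05 against 13.6%. The median log2 change of the 9 genes was -0.14, against 0.071 over all genes. In the EDL 0 of the 9 were called by limma and 0 had an unadjusted p under 0.05, against 0.00706% called and 2.89% with an unadjusted p under 0.05 among all genes. None of the 9 had EDL genotype groups without overlap, against 5.6% of all genes (2.83% higher and 2.77% lower). Their log2 changes there ran from -0.10 for Ryr1 to 0.10 for Jph2, with a median of 0.053. The 95% confidence intervals in the EDL reached from -0.49 to 0.54 for Pvalb and from -0.48 to 0.62 for Casq2. With 3 arrays a group, changes within those bounds remain possible. The bounds are not limits of detection, since larger changes could also go uncalled after adjustment over all genes. Nothing in the labels beyond the littermate pairs says that samples came from separate animals, so that p-values cover only the spread among these samples, which may be technical.

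**Figure D3:**
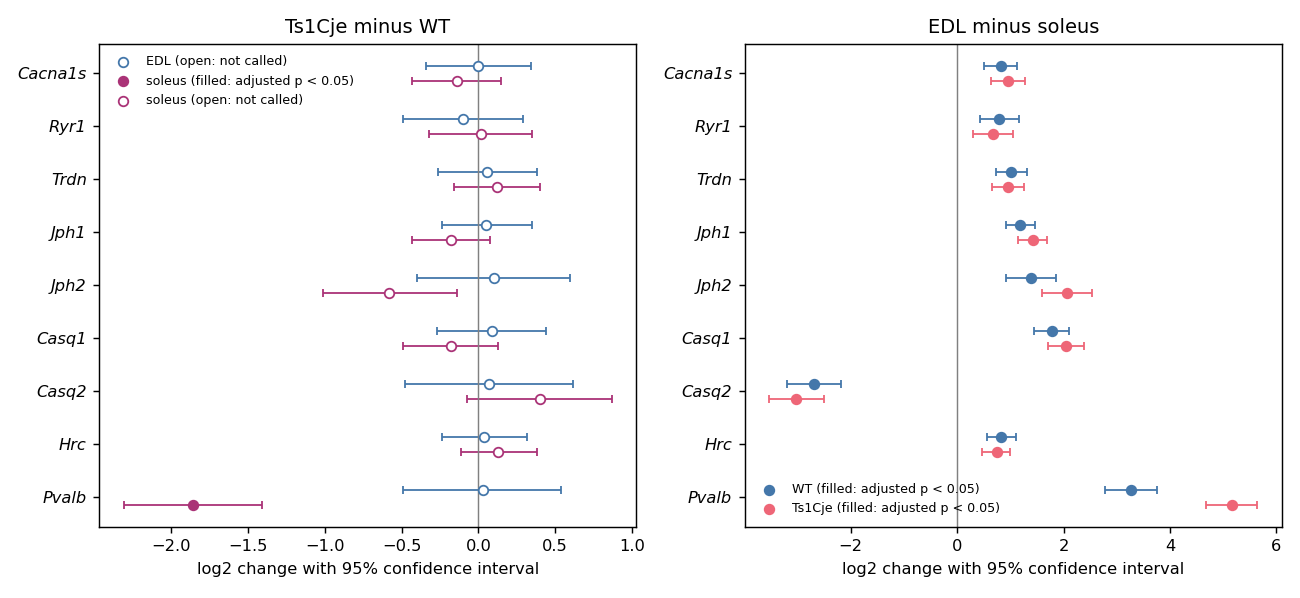
Log2 change of the 9 tested genes with 95% confidence intervals (horizontal axis), for Ts1Cje minus WT in each muscle (left) and EDL minus soleus in each genotype (right). Filled points passed a limma adjusted p of 0.05. On the left only Pvalb in the soleus is filled, at -1.86, and on the right all points are filled and only Casq2 lies below 0.

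The muscles were then compared within each genotype. All 9 tested genes differed between EDL and soleus in WT and again in Ts1Cje mice, 8 of them higher in the EDL and Casq2 lower. Among all genes tested, 29.8% were called in WT (20% higher and 9.77% lower in the EDL) and 29.9% in Ts1Cje (17.5% higher and 12.4% lower). The median log2 change of the 9 genes was 1.02 in WT and 0.96 in Ts1Cje, against 0.073 and 0.015 over all genes. By its brightest probe, no member had overlapping EDL and soleus groups in either genotype, a property of 38.9% of all genes in WT (25.8% higher and 13% lower in the EDL) and 35.3% in Ts1Cje (20.4% and 14.9%). The means of the 2 muscle comparisons share no arrays, since each uses those of its own genotype, but the fit shares 1 spread among the 4 groups. The comparisons are therefore not independent, and slide nearly coincided with muscle across them.

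Pvalb showed the widest muscle difference of the members. Its EDL signal was 11.79 ± 0.36 (SD, n = 3) in WT against 8.52 ± 0.38 (SD, n = 4) in the soleus, a log2 change of 3.27 ± 0.22 (SE; limma adjusted p = 1.12e-06), or 9.62-fold higher. In Ts1Cje the EDL stood at 11.82 ± 0.26 (SD, n = 3) against 6.66 ± 0.22 (SD, n = 4), a log2 change of 5.16 ± 0.22 (SE; limma adjusted p = 3.48e-08), or 35.6-fold higher. The order of the groups was EDL Ts1Cje and EDL WT, which overlapped, then soleus WT, then soleus Ts1Cje. Pvalb ranked 18 from the highest of 14170 genes in WT and 9 in Ts1Cje.

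The calsequestrins, the main calcium-binding proteins of the store, stood in opposite order. Casq1 read 6.66, 6.89 and 6.48 on the EDL WT arrays and 4.99, 4.70, 5.06 and 4.84 on the soleus WT arrays. On the Ts1Cje arrays it read 6.89, 6.92 and 6.48 in the EDL and 4.95, 4.78, 4.68 and 4.45 in the soleus. Every EDL array was thus above every soleus array, with log2 changes of 1.78 ± 0.15 (SE; limma adjusted p = 6.7e-06) in WT and 2.05 ± 0.15 (SE; limma adjusted p = 1.55e-06) in Ts1Cje, or 3.43-fold and 4.13-fold higher. Casq2 read 1.30, 1.82 and 1.28 in EDL WT and 0.85, 1.80 and 1.95 in EDL Ts1Cje, all below the lowest soleus array at 3.87. Its log2 changes were -2.69 ± 0.24 (SE; limma adjusted p = 7.21e-06) in WT and -3.02 ± 0.24 (SE; limma adjusted p = 2.09e-06) in Ts1Cje, or 6.46-fold and 8.12-fold lower in the EDL. Casq2 and Pvalb, the members with a MEF2 box in the windows searched, lay on opposite sides of the muscle comparison.

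Casq1 minus Casq2 on each array, a description that was not tested, brings both into 1 value whose zero depends on the probes. It averaged 5.22 ± 0.49 (SD, n = 6) in the EDL and 0.45 ± 0.41 (SD, n = 8) in the soleus over both genotypes. Within the soleus it was 0.74 ± 0.32 (SD, n = 4) in WT and 0.16 ± 0.25 (SD, n = 4) in Ts1Cje, and the highest Ts1Cje array, at 0.44, lay just below the lowest WT array, at 0.46. In the EDL the genotypes stood at 5.21 ± 0.15 (SD, n = 3) and 5.23 ± 0.76 (SD, n = 3). The same measure for the junctophilins, Jph1 minus Jph2, overlapped between all 4 groups, with soleus WT arrays at -1.11 to -0.29 and soleus Ts1Cje arrays at -0.86 to -0.22.

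**Figure D4:**
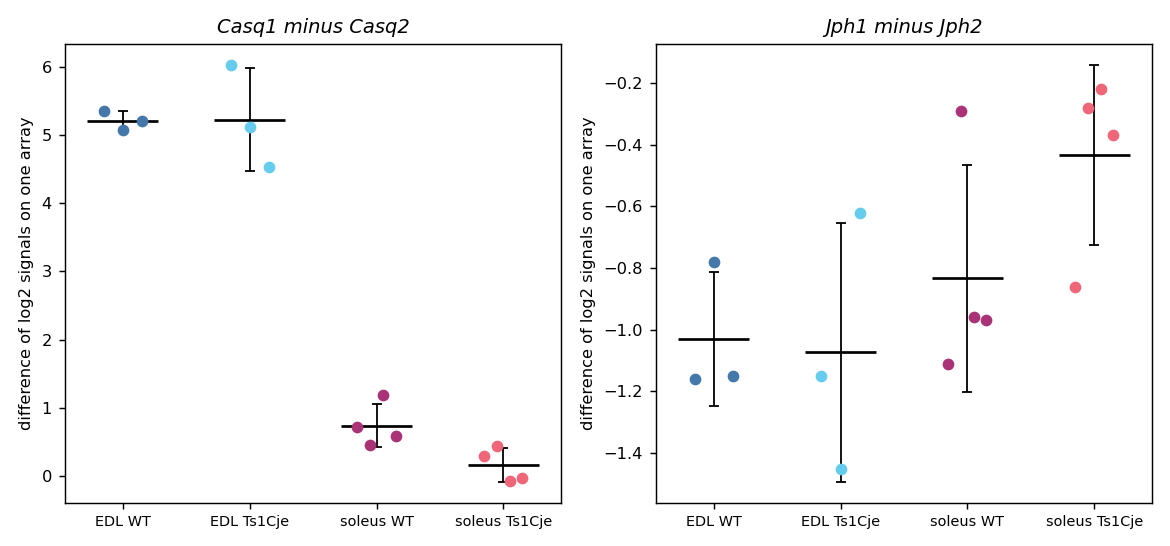
Difference of the log2 signals of Casq1 and Casq2 (left) and of Jph1 and Jph2 (right) on each array, by group, with means and SD. The zero of each axis depends on the probes, so only shifts between groups can be read. The EDL arrays lie at 4.53 to 6.03 for the calsequestrins and the soleus arrays at -0.071 to 1.19.

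Both junctophilins were higher in the EDL. Jph2 read 2.87, 2.53 and 2.76 in EDL WT and 2.91, 3.11 and 2.43 in EDL Ts1Cje, all above the highest soleus array at 1.67. Its log2 changes were 1.39 ± 0.22 (SE; limma adjusted p = 0.00045) in WT and 2.06 ± 0.22 (SE; limma adjusted p = 2.07e-05) in Ts1Cje. Jph1 gave 1.19 ± 0.13 (SE) and 1.42 ± 0.13 (SE), with EDL arrays at 1.60 to 1.81 and soleus arrays at 0.15 to 0.71. Triadin stood 1.02 ± 0.14 (SE) higher in WT and 0.96 ± 0.14 (SE) higher in Ts1Cje, and its other probes gave 0.87 and 0.89 in WT and 0.95 and 1.33 in Ts1Cje.

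The voltage sensor and the release channel differed less. Cacna1s stood at 8.80 to 9.33 on the EDL arrays and 7.83 to 8.46 on the soleus arrays, with log2 changes of 0.82 ± 0.15 (SE; limma adjusted p = 0.00119) in WT and 0.96 ± 0.15 (SE; limma adjusted p = 0.000363) in Ts1Cje. Its other probe gave 0.77 and 0.97. Ryr1 stood at 7.24 to 7.68 and 6.25 to 6.95, with log2 changes of 0.79 ± 0.17 (SE; limma adjusted p = 0.00389) and 0.67 ± 0.17 (SE; limma adjusted p = 0.01). Hrc, the histidine-rich luminal protein, stood at 8.52 to 8.92 and 7.80 to 8.14, with log2 changes of 0.83 ± 0.12 (SE) and 0.74 ± 0.12 (SE). For these 3 genes and for Jph1, Casq1 and the brightest Trdn probe, the genotypes overlapped within the EDL and within the soleus, so that only the muscles could be ordered.

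Because slide and muscle nearly coincide, the muscle values also rest on what a slide block leaves. In Ts1Cje, slide 1 held the 3 EDL arrays and 1 soleus array, and within it all 9 genes kept their direction, with Pvalb at 5.40, Casq2 at -3.13, Casq1 at 1.81, Jph2 at 1.78, Jph1 at 1.57, Ryr1 at 1.07 and Trdn at 1.03. Cacna1s at 0.93 and Hrc at 0.77 no longer passed there (limma adjusted p = 0.06 and 0.0852), and the lone soleus array was assumed to vary like the other groups. With slide as a block in WT, Cacna1s at 0.78 and Jph2 at 1.02 no longer passed (limma adjusted p = 0.0908 and 0.114), and Ryr1 moved to 1.33. No slide held both WT muscles, so that the slide term rests wholly on soleus Ts1Cje replicate 1 against the other soleus Ts1Cje arrays. The blocked WT values therefore cannot separate slide from that array. Quantile normalization lowered the muscle difference of Cacna1s to 0.35 in WT (limma adjusted p = 0.0503) and 0.50 in Ts1Cje, and that of Hrc to 0.47 and 0.34. Normexp background correction lowered Ryr1 in Ts1Cje to 0.50 (limma adjusted p = 0.0968) and Jph1 in WT to 0.77.

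**Figure D5:**
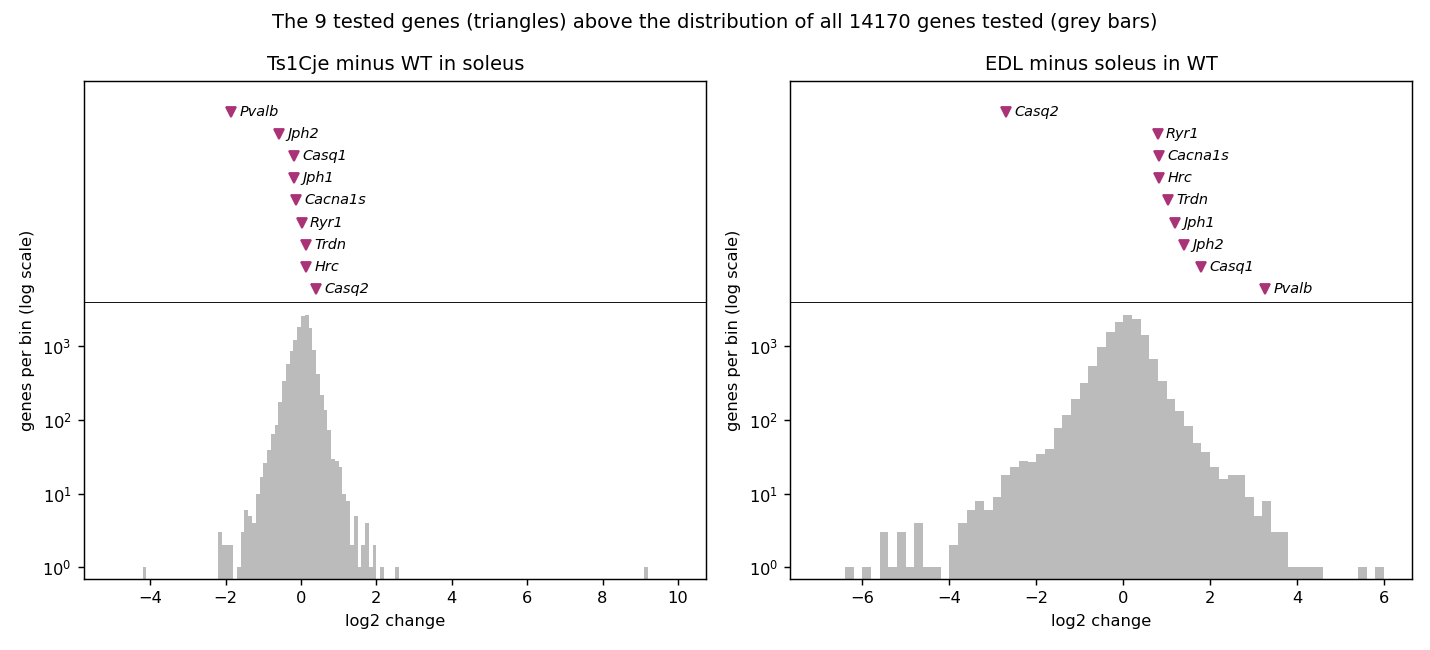
Log2 change of all 14170 genes tested (grey bars, counts on a log axis) for Ts1Cje minus WT in the soleus (left) and EDL minus soleus in WT (right), with the 9 members as triangles whose height only separates the names. On the left Pvalb lies at -1.86 and the other 8 between -0.58 and 0.40, and on the right Casq2 lies at -2.69 and the other 8 between 0.79 and 3.27.

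Other genes of the pathway were taken from 10 lists with 64 genes, of which 56 were measured. None of the 56 was called in the EDL (lowest limma adjusted p = 1, 0 with an unadjusted p under 0.05) or in the soleus (lowest limma adjusted p = 0.276, 16 with an unadjusted p under 0.05, against 13.6% of all genes). Between the muscles 22 were called higher and 8 lower in the EDL in WT, and 23 higher and 10 lower in Ts1Cje, with medians of 0.17 and 0.19. Over all genes 20% were called higher and 9.77% lower in WT, and 17.5% and 12.4% in Ts1Cje. The partners of Cacna1s stood on its side: all 5 listed genes of the voltage sensor complex were called higher in the EDL in both genotypes, with medians of 0.85 and 0.81. Among them Cacng1, the gamma subunit, was higher by 1.30 in WT and 1.40 in Ts1Cje, Cacna2d1, the alpha-2-delta subunit, by 0.96 and 0.81, and Cacng6 by 0.78 and 0.85.

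Triad and tubule genes and the partners of the release channel were divided. Of 6 measured triad and tubule genes 4 were called higher in the EDL in WT. They were led by Sypl2 (mitsugumin 29, 0.93 in WT and 0.74 in Ts1Cje) and Dysf (dysferlin, 0.64 and 0.61). In Ts1Cje 3 were called higher and Mtm1 was called lower (-0.34). Of 10 release channel partners 5 were called higher and 3 called lower in both genotypes. Homer1, a scaffold protein, was higher by 1.11 and 0.88 and the calmodulin gene Calm3 by 1.06 and 1.1. The Homer1 relatives Homer2 (-2.31 and -2.30) and Homer3 (-0.99 and -0.78) were lower, as was S100a1 (-0.65 and -0.93), which binds the ryanodine receptor.

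Of 5 other release and counter-ion channels 2 were called higher in both genotypes. These were Itpr1 (an inositol trisphosphate receptor, 1.35 and 1.35) and Tmem38a (a counter-ion channel of the reticulum, 0.53 and 0.39). Of 7 other luminal calcium binders 2 were called higher, Srl (sarcalumenin, 0.93 and 0.85) and Rcn2 (0.63 and 0.44). The 1 measured gene among the other cytosolic buffers, Ocm, gave -0.32 and 0.28 and was not called. In store-operated entry Stim2, a calcium sensor, was called higher (1.36 and 1.78) and Orai2, a channel subunit, called lower (-0.56 and -0.76), among 5 measured. The Stim2 probe was well above background on 2 of 4 soleus WT and 1 of 4 soleus Ts1Cje arrays.

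Of 6 genes of mitochondrial calcium uptake 2 were called lower in the EDL in WT and 3 in Ts1Cje. The gatekeeper Micu2 gave -0.73 and -0.84. In Ts1Cje Slc8b1 was among those called lower (-0.74). Micu3 was called higher there (2.08), with its probe well above background on 1 of 4 soleus Ts1Cje arrays. Of 5 pump genes, the fast pump Atp2a1 (1.67 and 2.24) and its inhibitor Mrln (1.80 and 1.67) were called higher in the EDL. The slow pump Atp2a2 (-5.18 and -5.98) and the pump inhibitor Sln (-4.65 and -6.30) were called lower. Of 6 plasma membrane extrusion genes Atp2b3 was called higher (1.89 and 1.54). In Ts1Cje Slc8a1 (0.82) was also called higher, with its probe well above background on 2 of 4 soleus Ts1Cje arrays.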

How the data were processed

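The sections above rest on 14 one-colour Agilent arrays, 1 per sample. The deposited scanner files hold intensity values per spot, which the authors extracted with Agilent Feature Extraction, whose version the file headers give as 11.5.1.1 and the submitters' processing notes as 9.1; the background was already subtracted, and no step between arrays had been applied. The deposited table of normalized log2 values, scaled and centred by the authors, correlated at 0.9999 or more with the same quantity computed from the scanner files. Probe positions are mm9, per the file headers.

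Here log2 intensity was taken minus each array's log2 75th percentile, spots of a probe were averaged, and the 25190 probes that were well above background throughout 1 or more groups were kept. A gene was represented by its brightest kept probe, which gave 14170 genes. In R 4.3.3, a model with 4 group means was fitted by limma 3.58.1 (lmFit, eBayes; 10 residual and 2.8 prior degrees of freedom). P-values are two-sided and Benjamini-Hochberg adjusted over all genes, and an adjusted p under 0.05 is called, written as rose or fell, or as higher or lower where called is said. Precision is limited by the number of arrays: the genotype log2 changes had a median SE of 0.18 (EDL) and 0.16 (soleus), the muscle ones 0.17. The fit was also run on simulated data, and as no outcome is given here, nothing is drawn from it. Same-numbered EDL WT and Ts1Cje arrays deviated together (correlations 0.401, 0.116 and 0.314), as did EDL and soleus WT arrays (0.512, 0.408 and 0.329). EDL and soleus Ts1Cje arrays did not (-0.0885, -0.156 and 0.117). Where arrays deviated together the numbers may mark pairs, but the labels do not say so. What the shared deviations reflect was not tested, and the main fit used no replicate block.

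Text names the 10 members, pathway genes called in a genotype comparison, in the muscle comparisons up to 2 called genes per list and direction, the 5 genes most correlated with Pvalb over the soleus arrays, and fibre markers that moved with a result; some genes that this rule names are not reported here. The members and the lists were chosen with earlier results of these data known. Alternatives covered background correction, normalization, filter, probe rule, variance, weights, slide and replicate blocks, and leaving out arrays.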

Additional observations from a re-analysis of the deposited data

Results flagged for a closer look

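Casq2 in the soleus WT group had 1 array apart from the rest. Its lowest array, replicate 3, read 3.87 against 4.24 for the nearest of the other 3, a gap of 0.924 of the group's range. Of 22 groups of 4 arrays examined in this way 1 stood out, where chance gives about 1 in 20. Leaving out each array in turn kept the Casq2 log2 change in the soleus between 0.30 and 0.47, and limma called it in 0 of those fits (adjusted p 0.334 to 0.696).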

How the results depend on the processing

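The members' muscle calls numbered 9 in each genotype whichever array was left out, and the Pvalb call in the soleus held in those fits, with log2 changes of -2.03 to -1.72. Within slide 2, 0 members were called in the soleus. The averaged Pvalb call was lost (0 members) with no filter on dim probes, array weights, slide as a block and the replicate block, and leaving out arrays gave 0 to 1. Counts over all genes moved more. In the EDL the 1 call became 2 with quantile normalization, 2 with no filter, 0 with probes above background on all 14 arrays, 3 with every probe tested, 3 with a trended robust variance and 1 to 3 without single arrays (2 without EDL WT replicate 1 or 2 or Ts1Cje replicate 3, 3 without WT replicate 3). In the soleus the 35 calls became 15 with normexp, 6 with no filter, 23 with the mean of probes, 18 with slide as a block, 1 within a slide, 7 with the replicate block, 4 with only the 2 groups compared and 10 to 38 without single arrays, at 10 without soleus WT replicate 1, 16 without 3 and 17 without 4, and 18, 11 and 12 without soleus Ts1Cje replicates 1, 2 and 3. For the mean effect the 41 calls became 22 with normexp, 21 with no filter, 5 with the replicate block and 25 to 41 without single arrays (25 without EDL Ts1Cje replicate 3 or soleus WT replicate 1, 26 without soleus Ts1Cje replicate 3), and for the difference 0 to 1 (1 without soleus Ts1Cje replicate 2). Between the muscles in WT the 4224 calls became 2280 with normexp, 6582 with every probe tested, 1367 with slide as a block and 3223 to 4332 without single arrays. In Ts1Cje the 4243 calls became 6806 with every probe tested, 2069 with slide as a block, 959 within a slide and 2957 to 4218 without single arrays. The cause was not tested.

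Uncalled values near 0 changed sign. In the EDL Cacna1s became -0.026 with normexp and -0.060 with quantile normalization, Hrc -0.035 and Pvalb -0.041 with quantile normalization, and Casq2 -0.058 with array weights. In the soleus Ryr1 became -0.059 with quantile normalization and Trdn -0.13 with the mean of its probes. Without single arrays the EDL values ranged from -0.12 to 0.15 for Cacna1s, -0.0095 to 0.23 for Casq1, -0.14 to 0.41 for Casq2, -0.076 to 0.12 for Hrc, -0.049 to 0.29 for Jph2, -0.15 to 0.21 for Pvalb, -0.20 to 0.022 for Ryr1 and -0.055 to 0.14 for Trdn, and Ryr1 in the soleus from -0.093 to 0.15. Dropping the filter moved the median of all genes past 0.1 between the muscles, to 0.11 in WT and 0.14 in Ts1Cje. The replicate block changed no other call of a member. Same-numbered soleus arrays of the 2 genotypes did not deviate together (correlations -0.122, -0.294, 0.0104 and -0.135), which does not settle whether their numbers mark pairs. With the block the Pvalb change in the soleus was -1.86 (limma adjusted p = 0.0105). A fit of only the compared groups could not be made for the difference and the mean, nor a fit within a slide for these and for the muscles in WT.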
